A study of Mus musculus with 6 samples.

Results

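Transcripts of 6 metabotropic glutamate receptor genes were measured by RNA-seq in the mouse striatum, where cortical and thalamic input enters the basal ganglia. The members were Grm5 of receptor group I, Grm2 and Grm3 of group II, and Grm4, Grm7 and Grm8 of group III, each matched by its GENCODE mouse symbol to 1 Ensembl identifier. They were thus 6 of the 55335 genes in the count files, and all 6 passed the filter on low counts. The other genes of the family are not described here. The 6 libraries came from C57 mice, 3 labelled as overexpressing PDE5A and 3 controls labelled wild type. PDE5A is a phosphodiesterase that hydrolyses cyclic GMP. The age of the mice, the way PDE5A was overexpressed, the cells that received it and what the controls were given are not stated in the sources used here. Whether each library is a separate animal is not stated either, so the spread behind the p-values may not be that between animals.

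Metabotropic glutamate receptors are G protein-coupled receptors that respond to glutamate more slowly than the ion channel receptors do. Group I receptors act through Gq and phospholipase C, which release calcium from internal stores. Group II and group III receptors act through Gi/o proteins, which lower cyclic AMP. In the striatum mGlu5, the product of Grm5, is abundant in medium spiny neurons, the projection neurons of the tissue. Group II and III receptors are best known for restraining glutamate and GABA release from nerve terminals, many of which belong to cortical neurons whose cell bodies lie outside the striatum. The group II receptor encoded by Grm3 is also made by astrocytes.

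Library totals ran from 33013698 to 42288789 counts, and the 3 overexpression libraries were shallower than the 3 control libraries. Pde5a, the overexpressed gene, had 760, 700 and 592 CPM (counts scaled to a common library size) in overexpression replicates 1 to 3, against 3.72, 4.14 and 6.09 CPM in control replicates 1 to 3. It was the only gene called among 19809 tested. The markers of medium spiny neurons were present in every library: Ppp1r1b, which encodes the dopamine-regulated phosphatase inhibitor DARPP-32, had 991 to 1910 CPM in overexpression and 1130 to 1890 CPM in control. Markers of other tissue varied between libraries. Summed over 11 markers, cortical glutamatergic neurons had 361, 697 and 1350 CPM in overexpression replicates 1 to 3 and 596, 150 and 1070 CPM in control replicates 1 to 3. Summed over 10 markers, choroid plexus had 539, 2480 and 34.7 CPM in overexpression and 73.7, 51.5 and 53.7 CPM in control.

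None of the 6 receptor genes was called higher or lower in overexpression. Under edgeR's quasi-likelihood test, adjusted over all genes by the Benjamini-Hochberg method with a threshold of 0.05, each member had an adjusted p of 1.0. In the same test 0.00505% of all genes were called, and a count of 0 among 6 lies near that background. At an unadjusted p under 0.05 the count was 0 of 6 members, beside 3.89% of all genes. The DESeq2 Wald test likewise called 0 of 6 members, beside 0.419% of all genes. For 0 of 6 members did the CPM values of the groups separate completely, beside 8.93% of all genes. Fold changes were negative for 4 members (Grm3, Grm5, Grm4 and Grm7), beside 49.4% of all genes, and positive for Grm2 and Grm8. Their median was −0.10 on the log2 scale, beside 0.0 for all genes tested. Exact two-sided permutation tests of log2 CPM gave p from 0.2 to 0.9 over the 6 members, where 0.1 is the smallest that 3 samples against 3 can give.

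**Figure D1:**
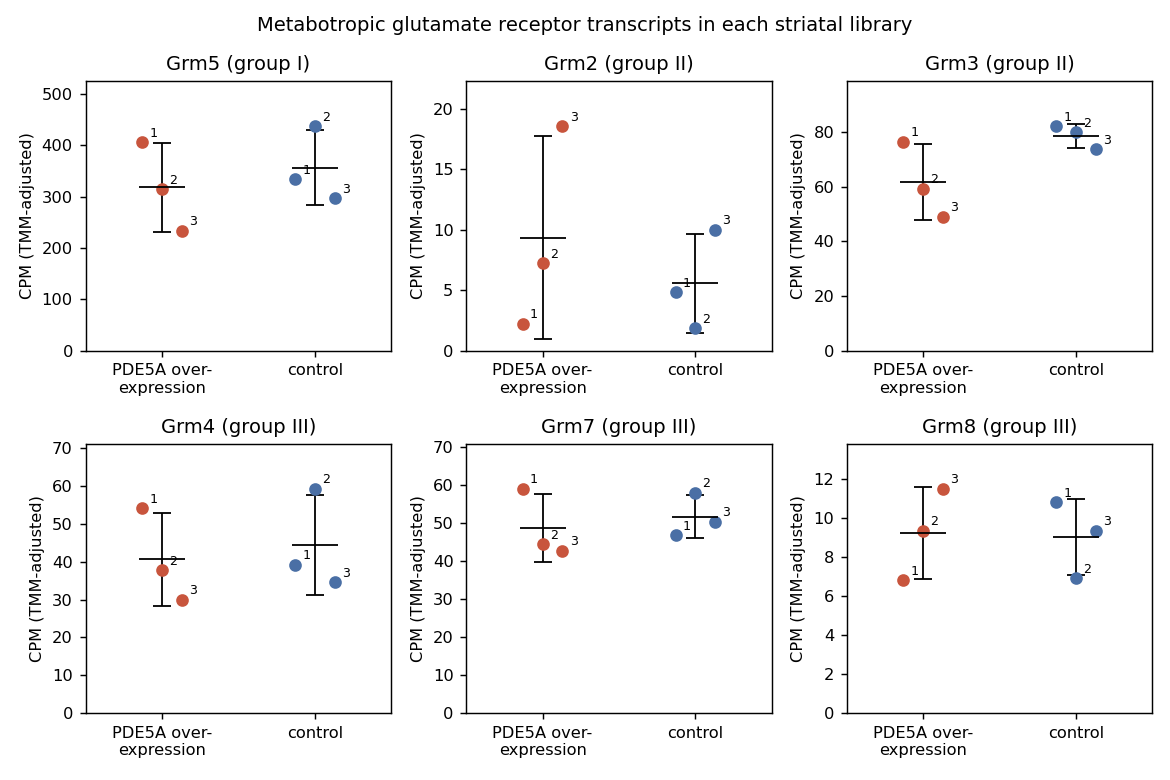
CPM of each receptor gene in every library, on a linear axis from 0. Points are libraries numbered by replicate, the wide bar is the group mean and the whiskers are 1 SD (n = 3). The 2 groups overlap in every panel, and Grm2 has the widest relative spread, from 1.88 to 18.6 CPM.

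Because a longer transcript yields more reads, levels of different genes were compared per kilobase of annotated exon. Grm5 was the highest of the 6, at 39.6, 30.7 and 22.8 CPM per kilobase in overexpression replicates 1 to 3 and 32.6, 42.7 and 29.0 in control replicates 1 to 3. It made up 40.6% to 47.6% of the per-length sum of the 6 genes in any library. Grm3 came next, with 25.1, 19.5 and 16.1 CPM per kilobase in overexpression and 27.0, 26.2 and 24.2 in control. Grm5 exceeded Grm3 in 6 of 6 libraries, by 1.2 to 1.63 times, although their ranges over libraries overlapped.

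Grm7 and Grm4 formed the next tier and were close to each other. Grm7 averaged 8.29 ± 1.53 CPM per kilobase in overexpression and 8.79 ± 0.967 in control, and Grm4 averaged 6.79 ± 2.06 in overexpression and 7.42 ± 2.19 in control (SD, n = 3 each). Grm7 was above Grm4 in 5 of 6 libraries, by a ratio of 0.994 to 1.48, so the 2 genes did not differ beyond their spread. With the longest transcript as length instead, Grm7 exceeded Grm4 in 6 of 6 libraries, by 1.07 to 1.6 times. Grm2 and Grm8 were the lowest, with 0.384 to 3.79 and 0.688 to 1.16 CPM per kilobase over the 6 libraries. Their order was not fixed: Grm2 was the higher of the 2 in overexpression replicates 2 and 3 and in control replicate 3, and Grm8 in the other 3 libraries. The steps from Grm3 to Grm7 and from Grm4 to Grm2 were the 2 at which the ranges of neighbouring genes did not overlap.

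Summed per kilobase, the group III genes held 23.3%, 22.3% and 23.9% of the 6-gene total in overexpression replicates 1 to 3 and 20.5%, 22.8% and 21.7% in control replicates 1 to 3. The group II pair held 30.1%, 31.5% and 35.5% in overexpression and 36.7%, 29.6% and 37.3% in control. Both sets of shares overlap between the groups.

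**Figure D2:**
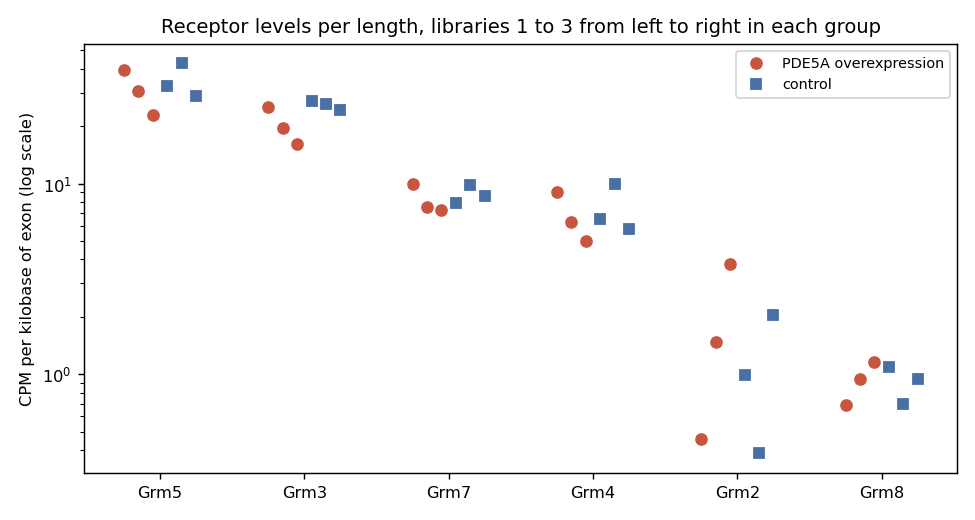
CPM per kilobase of annotated exon on a log axis, with 1 point per library (circles, PDE5A overexpression, squares, control). The order from the left is by the mean over the 6 libraries, from Grm5 at 32.9 to Grm8 at 0.922, and Grm2 has the widest range, from 0.384 to 3.79.

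Grm5 (ENSMUSG00000049583), which encodes the group I receptor mGlu5, is protein-coding and occupies chromosome 7 between 87584168 and 88134907 (mm10, plus strand). It had 406, 315 and 234 CPM in overexpression replicates 1 to 3, against 334, 438 and 297 CPM in control replicates 1 to 3. The highest value lay in control replicate 2 and the lowest in overexpression replicate 3, with the other 4 libraries interleaved. Group means were 318 ± 86.4 CPM in overexpression and 356 ± 73.2 CPM in control (SD, n = 3 each). This gave a log2 fold change of −0.16 (SE 0.23). Its 95% interval, −0.72 to 0.39, corresponds to 0.607-fold to 1.31-fold, the span of differences compatible with these samples. The direction turned when control replicate 2 was left out, giving 0.01, and when overexpression replicate 3 was, giving 0.02.

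Grm2 (ENSMUSG00000023192) encodes mGlu2, the group II receptor known as a presynaptic autoreceptor of glutamatergic neurons. It lies on the minus strand of chromosome 9, from 106643095 to 106656082. Grm3 (ENSMUSG00000003974), which encodes mGlu3, the receptor that also responds to the peptide transmitter N-acetylaspartylglutamate, lies on the minus strand of chromosome 5, from 9485541 to 9725170. The 2 genes of this group had unlike patterns over the libraries. The windows around their annotated starts are printed here, from 250 bases before to 50 bases after the start (RefSeq, GRCm38.p6, 5′ to 3′ on the gene's strand). Whether these sequences bear on the patterns was not tested. The RefSeq start of Grm3 lies upstream of the GENCODE span given above, so its whole window falls outside that span. Capitals mark the letters GGGCGG, the core of the GC box bound by Sp1-family factors, searched on both strands.
Grm2, chr9:106656060-106656359, minus strand: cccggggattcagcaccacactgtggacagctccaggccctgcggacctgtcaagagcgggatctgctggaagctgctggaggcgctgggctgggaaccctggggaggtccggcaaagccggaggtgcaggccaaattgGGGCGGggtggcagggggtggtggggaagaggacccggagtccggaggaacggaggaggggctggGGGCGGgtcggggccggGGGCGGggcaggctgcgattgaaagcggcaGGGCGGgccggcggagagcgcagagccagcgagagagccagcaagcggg
Grm3, chr5:9725303-9725602, minus strand: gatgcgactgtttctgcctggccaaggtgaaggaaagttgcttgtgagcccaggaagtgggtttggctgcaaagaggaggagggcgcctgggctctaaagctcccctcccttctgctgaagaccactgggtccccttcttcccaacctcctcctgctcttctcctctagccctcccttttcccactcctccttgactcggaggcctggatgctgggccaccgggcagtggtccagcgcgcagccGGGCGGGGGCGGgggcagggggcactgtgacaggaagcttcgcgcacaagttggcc
The Grm2 window held 4 matches and the Grm3 window 2, and 35.9% of 32544 windows of the same length held at least 1. Their GC contents were 72.0% and 63.7%, beside a median of 53.0% over all windows, and they held 22 and 11 CG dinucleotides beside a median of 7. Neither held the cyclic AMP response element TGACGTCA, found on either strand in 1.8% of all windows. These matches describe the letters only, and no binding was measured. Windows of Grm7 and Grm8 held at most 1 match each and are not printed.

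Grm2 was the member that varied most. Its raw counts were 88, 241 and 695 in overexpression replicates 1 to 3 and 203, 77 and 404 in control replicates 1 to 3. These correspond to 2.23, 7.25 and 18.6 CPM in overexpression, against 4.84, 1.88 and 10.0 CPM in control. The highest library was thus 9.88 times the lowest, and the extremes were overexpression replicate 3 and control replicate 2, with the groups fully interleaved. Within a group the highest library was 8.32 times the lowest in overexpression and 5.33 times in control. The standard deviation of its log2 CPM over the 6 libraries, 1.15, was larger than that of 99.2% of 13883 protein-coding genes with a mean of at least 1 CPM, whose median was 0.127.

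Group means of Grm2 were 9.34 ± 8.36 CPM in overexpression and 5.57 ± 4.11 CPM in control (SD, n = 3 each). The log2 fold change of 0.75 had a standard error of 0.92 and a 95% interval from −1.59 to 3.08. Leaving out overexpression replicate 3 turned the sign, to −0.25. With control replicate 2 left out it was 0.33, and with control replicate 3 left out 1.47. It was 1.21 without overexpression replicate 1, and 1.73 when both libraries high in choroid plexus markers, overexpression replicates 1 and 2, were left out. An annotated antisense gene overlaps exons of Grm2 but had at most 2 counts in any library.

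Grm3 had 76.6, 59.4 and 49.1 CPM in overexpression replicates 1 to 3, against 82.3, 80.0 and 73.9 CPM in control replicates 1 to 3. Overexpression replicates 2 and 3 lay below every control library, while overexpression replicate 1 lay between control replicates 3 and 2. The 3 controls differed by no more than 1.11 times from highest to lowest, and the overexpression libraries by 1.56 times. Means were 61.7 ± 13.9 CPM in overexpression and 78.7 ± 4.35 CPM in control (SD, n = 3 each).

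Grm3 had a log2 fold change of −0.35 (SE 0.15), a 95% interval from −0.71 to 0.01 and an unadjusted p of 0.0554 in edgeR's quasi-likelihood test. This was the smallest p of the 6 members, and it had an adjusted p of 1.0. Grm3 was also the one member whose direction was negative in each of the 15 other settings tried, with log2 fold changes from −0.68 to −0.21 and adjusted p from 0.537 to 1.0. Without overexpression replicate 1 the value was −0.54, and without overexpression replicates 1 and 2 it was −0.68. Without overexpression replicate 3 it was −0.21. Leaving out overexpression replicate 1 gave an unadjusted p of 0.00148 and an adjusted p of 0.537 in edgeR's quasi-likelihood test. Every other library left out singly gave an unadjusted p from 0.0722 to 0.148 in that test. With all 6 libraries the unadjusted p fell under 0.05 in 4 of the other settings, at 0.0339 in the DESeq2 Wald test, 0.0443 in limma-voom, 0.043 without a filter on low counts and 0.00727 with the replicate number as a block, where edgeR's adjusted p was 0.714.

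Astrocyte markers were examined beside Grm3. Of 11 markers, 0 passed over all genes and 11 had negative fold changes, beside 49.4% of all genes. The median log2 fold change of the markers was −0.19. Their summed level was 1860, 1720 and 1610 CPM in overexpression replicates 1 to 3 and 2010, 1840 and 1950 CPM in control replicates 1 to 3. At an unadjusted p under 0.05 there were 3 of 11, beside 3.89% of all genes. The groups did not overlap for 5 of 11 (Acsbg1, Aldoc, Aldh1l1, Mlc1 and Fgfr3), beside 8.93% of all genes. Negative fold changes were also held by 11 of 12 medium spiny markers (median −0.03) and 6 of 7 oligodendrocyte markers (median −0.11). Of 11 cortical and 10 choroid plexus markers, 0 were negative. The part of astrocytes in the value of Grm3 was not tested. In bulk tissue, fewer cells of a type and less RNA per cell cannot be told apart.

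Grm4 (ENSMUSG00000063239), on the minus strand of chromosome 17 from 27422387 to 27521403, encodes mGlu4, a group III receptor of nerve terminals. It had 54.1, 37.7 and 29.9 CPM in overexpression replicates 1 to 3, against 39.2, 59.2 and 34.5 CPM in control replicates 1 to 3. Control replicate 2 and overexpression replicate 1 were high and the other 4 libraries lay below 40 CPM. A log2 fold change of −0.13 (SE 0.29) resulted, with a 95% interval from −0.83 to 0.58. Leaving out control replicate 2 gave 0.14, and leaving out overexpression replicate 3 gave 0.05.

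Grm7 (ENSMUSG00000056755) encodes mGlu7, the group III receptor placed at the release sites of many synapses. Its locus is chromosome 6, 110645581 to 111567230, plus strand. It had 59.1, 44.5 and 42.8 CPM in overexpression replicates 1 to 3, against 46.8, 58.0 and 50.4 CPM in control replicates 1 to 3. This was the steadiest member, with the highest library 1.38 times the lowest. Means were 48.8 ± 8.98 CPM in overexpression and 51.7 ± 5.69 CPM in control (SD, n = 3 each), a log2 fold change of −0.08 with a 95% interval from −0.41 to 0.24. The value turned to 0.01 with control replicate 2 left out and to 0.0 with overexpression replicate 3 left out. An antisense gene, Gm20387, overlaps exons of Grm7 and had 70 to 141 counts per library, beside at least 1479 for Grm7. Since the strand setting of the counting is not given in the sources used here, this part of the Grm7 count is uncertain.

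Grm8 (ENSMUSG00000024211) encodes mGlu8, another presynaptic group III receptor, and lies on the minus strand of chromosome 6 from 27275119 to 28135178. It had 6.81, 9.35 and 11.5 CPM in overexpression replicates 1 to 3, against 10.8, 6.92 and 9.35 CPM in control replicates 1 to 3. Overexpression replicate 1 and control replicate 2 were the lowest libraries, the same 2 that were highest for Grm4, Grm5 and Grm7. The resulting log2 fold change was 0.03 (SE 0.23), with a 95% interval from −0.51 to 0.56. It became −0.13 with control replicate 2 left out and −0.17 with overexpression replicate 3 left out.

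**Figure D3:**
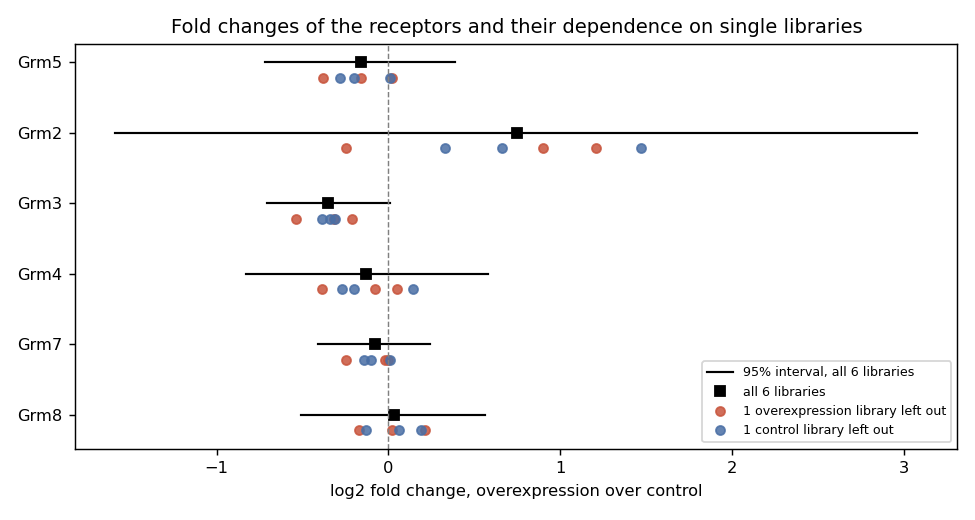
Log2 fold change of each receptor gene, overexpression over control, in edgeR's quasi-likelihood fit of all 6 libraries (square) with its 95% interval (line). Circles below each line are the values with 1 library left out, and for every gene but Grm3 they fall on both sides of 0 or reach it.

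Within each group the libraries differed in an order that several members shared. Over the 6 libraries Grm5 and Grm4 had nearly the same profile, with a root-mean-square difference of 0.0861 between their centred log2 CPM values, the smallest of any pair of members. Grm2 ranked the 6 libraries in the inverse order of Grm5 and Grm4. Its root-mean-square differences, 1.45 from Grm5 and 1.49 from Grm4, carry no direction and grow with its own spread of 1.15. The ratio of Grm2 to Grm5, per kilobase, was 0.0115, 0.0483 and 0.166 in overexpression replicates 1 to 3 and 0.0304, 0.00897 and 0.0706 in control replicates 1 to 3, a span of 18.5 times that overlapped between the groups.

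This order was also that of the neuron markers. The level of a marker list is the mean log2 CPM of its members. Cortical glutamatergic markers stood at 3.83, 4.59 and 5.72 in overexpression replicates 1 to 3 and at 4.52, 2.53 and 5.38 in control replicates 1 to 3. Medium spiny neuron markers stood at 9.39, 9.04 and 8.42 in overexpression and at 9.0, 9.42 and 8.63 in control. Overexpression replicate 3 and control replicate 3 were the highest in cortical markers and the lowest in medium spiny markers. The cortical and medium spiny lists ranked the libraries in inverse order, except for overexpression replicate 2 and control replicate 1. Over all genes 0 of 11 cortical and 0 of 12 medium spiny markers passed the threshold, with median log2 fold changes of 0.42 and −0.03.

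Relations of the 6 members to 4 marker lists, 24 in all, were computed over the 6 libraries, with exact two-sided permutation p over 720 pairings and Benjamini-Hochberg adjustment. In size of Pearson's r the closest list for Grm5 was medium spiny neurons, with r = 0.967 (exact permutation p = 0.00278, adjusted 0.0333) and Spearman's rho = 0.943 (p = 0.0167, adjusted 0.0667). Without the 2 libraries farthest from the median list level, overexpression replicate 3 and control replicate 2, r was 0.928. Against cortical markers Grm5 had r = −0.937 (exact permutation p = 0.00972, adjusted 0.0381), rho = −1.0 (p = 0.00278, adjusted 0.0222) and r = −0.933 without the same libraries. Its rho was thus larger in size for the cortical list. Because these lists rank the libraries almost inversely, neither can be called the closer. By r Grm2 was likewise closest to medium spiny markers but with the opposite sign, at r = −0.974 (exact permutation p = 0.00417, adjusted 0.0333) and rho = −0.943 (p = 0.0167, adjusted 0.0667), and r = −0.931 without those 2 libraries. Against cortical markers Grm2 had r = 0.938 (exact permutation p = 0.00694, adjusted 0.0381) and rho = 1.0 (p = 0.00278, adjusted 0.0222), and r = 0.947 without the same 2. Its rank order over the 6 libraries was thus that of the cortical markers.

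Among group III genes, Grm4 was about as close to both neuron lists, as Grm5 was. Against cortical markers it had r = −0.958 (exact permutation p = 0.00139, adjusted 0.0333), rho = −1.0 (p = 0.00278, adjusted 0.0222) and r = −0.922 without the 2 farthest libraries. Against medium spiny markers it had r = 0.958 (exact permutation p = 0.00833, adjusted 0.0381), rho = 0.943 (p = 0.0167, adjusted 0.0667) and r = 0.928 without them. Grm7 and Grm8 were closest to medium spiny markers by r but did not pass. Grm7 had r = 0.778 (exact permutation p = 0.0792, adjusted 0.173), rho = 0.714 (p = 0.136, adjusted 0.272) and r = 0.513 without the 2 farthest. Grm8 had r = −0.849 (exact permutation p = 0.0389, adjusted 0.117), rho = −0.771 (p = 0.103, adjusted 0.247) and r = −0.668 without them.

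By Pearson's r, Grm3 was closest to astrocytes, at r = 0.931 (exact permutation p = 0.0111, adjusted 0.0381) and rho = 0.771 (p = 0.103, adjusted 0.247). Without overexpression replicates 2 and 3 r was 0.273, so this relation rests on those 2 libraries. Its rho with cortical markers was of the same size, −0.771 (p = 0.103, adjusted 0.247), with r = −0.625 (exact permutation p = 0.199, adjusted 0.367) and r = −0.14 without the 2 farthest libraries. Thalamic markers, the fourth list, had the largest r for none of the 6 members. They stood at 1.39, 1.65 and 2.07 log2 CPM in overexpression replicates 1 to 3 and at 2.6, 2.26 and 2.13 in control replicates 1 to 3, so the groups did not overlap in this level. Over all genes 0 of 10 thalamic markers passed, and 10 had negative fold changes with a median of −0.46. For 3 (Prkcd, Gbx2 and Tcf7l2) the groups did not overlap, beside 8.93% of all genes. At an unadjusted p under 0.05 in edgeR's test there were also 3, beside 3.89% of all genes. Of the thalamic markers, Gbx2, at 0.177 to 0.805 CPM, and Lhx9, at 0.0 to 0.763 CPM, lay near the floor. Both weigh as much as the other markers in the list level. Relations within overexpression or control alone, with 3 libraries each, were not computed, and the marker lists and receptors share the same libraries and scaling factors. The share of all genes that follow these lists as closely was not computed either. The relations therefore cannot be called particular to the receptors.

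**Figure D4:**
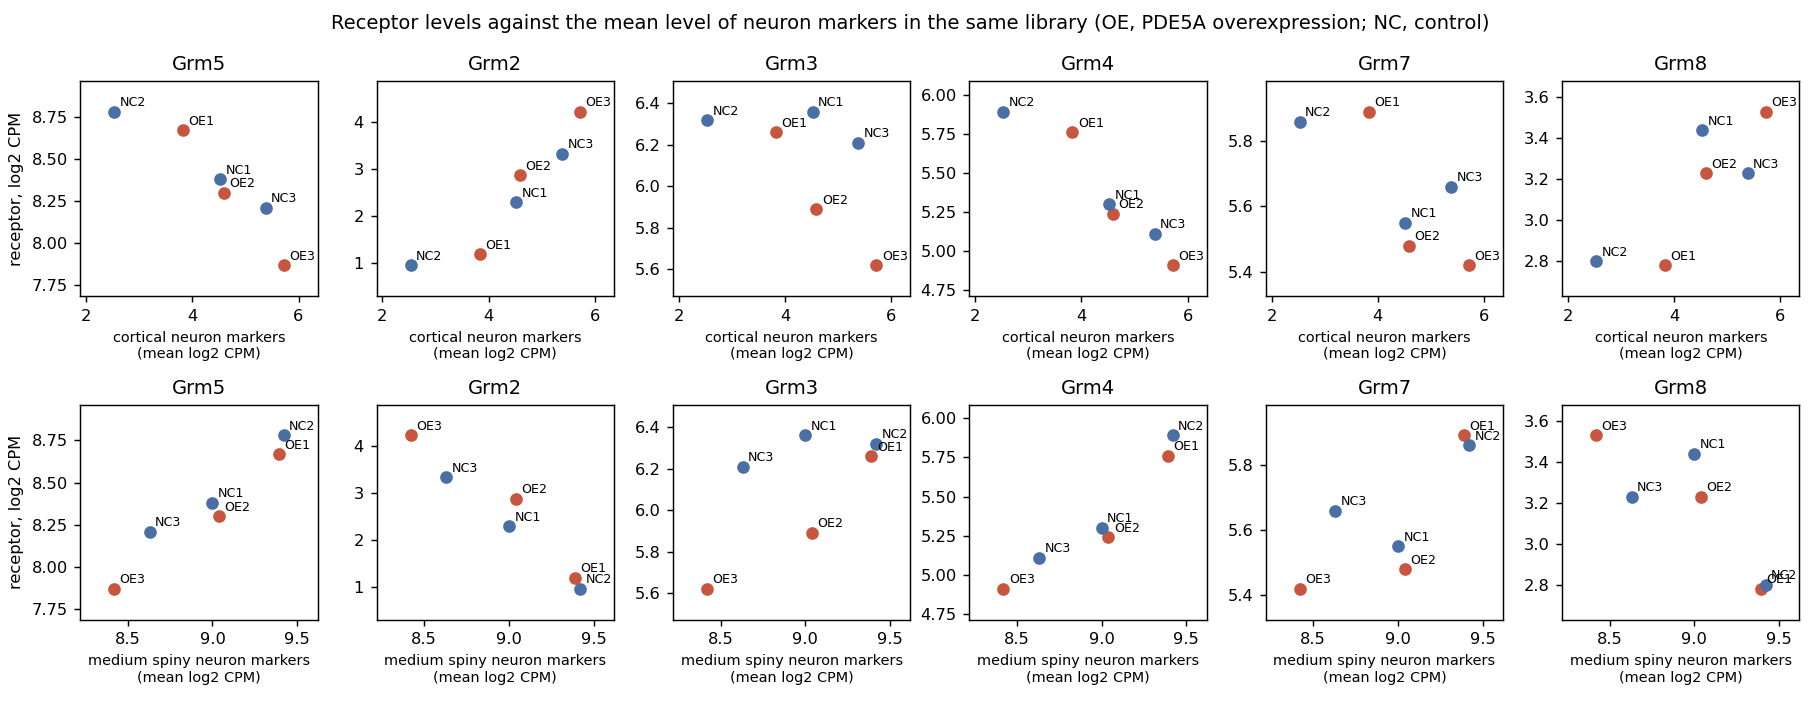
Log2 CPM of each receptor gene (vertical axis, scaled per panel) against the mean log2 CPM of cortical glutamatergic neuron markers (upper row) and medium spiny neuron markers (lower row), with 1 labelled point per library. Grm2 is higher and Grm5 and Grm4 are lower where cortical markers are higher, in overexpression and control libraries alike.

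The genes with the most similar profiles were found among the 13883 protein-coding genes, by the root-mean-square difference of centred log2 CPM over the 6 libraries. For Grm5 they were Gm9925, Pdzd2 and Alcam, which encodes a cell adhesion molecule, with differences of 0.0253 to 0.0336 beside a spread of 0.298 for Grm5 itself. For Grm4 they were Akap5, which encodes an anchoring protein for protein kinase A, Reln, which encodes the extracellular glycoprotein reelin, and Man1a, at 0.0566 to 0.0574. For Grm2 they were Tmem215 at 0.187, Gm45837 at 0.255 and Adam33 at 0.262, beside a spread of 1.15 for Grm2 itself. The spread was 0.347 for Grm4 and 0.289 for Grm8. Because the difference grows with a gene's own spread, its size does not rank the members by how well they are matched. The nearest to Grm3 were the zinc finger genes Zfp967 and Zfp968 and the laminin gene Lamb3, at 0.0318 to 0.0606. Those nearest to Grm7 were Fndc3b, Ripor2 and Ermap, at 0.0393 to 0.0452, and those nearest to Grm8 were Tmem141, Scly and Nck2, at 0.0885 to 0.0934.

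Genes that act with these receptors were examined in 6 lists holding 60 genes, all of which were tested. Over all genes 0 of the 60 passed in either direction in edgeR's quasi-likelihood test, 23 had positive and 37 negative fold changes, and values ran from −0.49 to 0.43 on the log2 scale. At an unadjusted p under 0.05 there were 2, or 3.33%, beside 3.89% of all genes. The groups did not overlap for 7, or 11.7%, beside 8.93% of all genes.

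Of 13 scaffolds and binding partners, 9 had negative fold changes, and the median was −0.07 on the log2 scale. Elfn1, a postsynaptic adhesion protein that recruits mGlu7 in trans, had 9.07, 12.3 and 13.6 CPM in overexpression replicates 1 to 3, against 14.2, 14.2 and 16.5 CPM in control replicates 1 to 3. Its groups did not overlap, with a log2 fold change of −0.36 (SE 0.16) and an adjusted p of 1.0 in edgeR's test. Grip1 and Grasp, which encode PDZ scaffolds, had log2 fold changes of −0.14 and 0.12. Homer1, whose product links mGlu5 to its calcium stores, averaged 214 ± 40.5 CPM in overexpression and 204 ± 13.9 CPM in control (SD, n = 3 each).

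Of 14 genes of group I signalling through Gq, 9 had negative fold changes, and the median was −0.06. Plcb3, a phospholipase C, averaged 18.3 ± 2.97 CPM in overexpression and 21.5 ± 2.02 CPM in control (SD, n = 3 each). The inositol trisphosphate receptor gene Itpr2 averaged 23.5 ± 2.68 CPM in overexpression and 26.5 ± 1.68 CPM in control, and the cannabinoid receptor gene Cnr1 averaged 385 ± 96.1 CPM in overexpression and 321 ± 45.6 CPM in control. These 3 had the smallest p of the list, and their groups overlapped. Fold changes were positive for 8 of 14 genes of Gi/o signalling, whose median was 0.03. Gnai3, a Gi subunit, had 38.2, 38.0 and 35.2 CPM in overexpression, against 41.8, 40.6 and 39.0 CPM in control, so its groups did not overlap, by a log2 fold change of −0.12. Rgs4 and Rgs2, which encode proteins that speed the shut-off of G proteins, had log2 fold changes of 0.18 and 0.14 with overlapping groups.

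Of 6 genes of receptor desensitisation, 4 had negative fold changes, with a median of −0.03. The kinase gene Grk5 had 25.1, 24.6 and 20.9 CPM in overexpression, against 28.3, 31.9 and 25.1 CPM in control, a log2 fold change of −0.27 (SE 0.11) with an unadjusted p of 0.0454 and an adjusted p of 1.0 in edgeR's test. The arrestin genes Arrb1 and Arrb2 had log2 fold changes of −0.11 and 0.10.

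Of 9 genes of glutamate release, uptake and turnover, 6 had negative fold changes, with a median of −0.19. The astrocytic glutamate transporter genes had the smallest p. Slc1a2 had 3200, 2910 and 2740 CPM in overexpression, against 3220, 3420 and 3520 CPM in control, and Slc1a3 averaged 520 ± 33.6 CPM in overexpression and 591 ± 50.1 CPM in control (SD, n = 3 each). For both the groups did not overlap, with log2 fold changes of −0.20 and −0.19, and the same held for Glul, the astrocytic glutamine synthetase gene, at −0.13. The cystine and glutamate exchanger gene Slc7a11 had a log2 fold change of −0.28. This list holds Slc17a7, also in the cortical marker list, and Slc17a6, also in the thalamic marker list.

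N-acetylaspartylglutamate is made by the synthetases encoded by Rimkla and Rimklb and broken down by peptidases that include the product of Folh1. Of the 4 genes of this list 3 had negative fold changes, with a median of −0.22. Rimkla had 17.6, 14.2 and 14.2 CPM in overexpression, against 18.3, 21.7 and 19.4 CPM in control, so its groups did not overlap. Its log2 fold change of −0.37 (SE 0.12) had an unadjusted p of 0.0148 and an adjusted p of 1.0 in edgeR's test. Rimklb and Folh1 had log2 fold changes of −0.19 and −0.26.

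**Figure D5:**
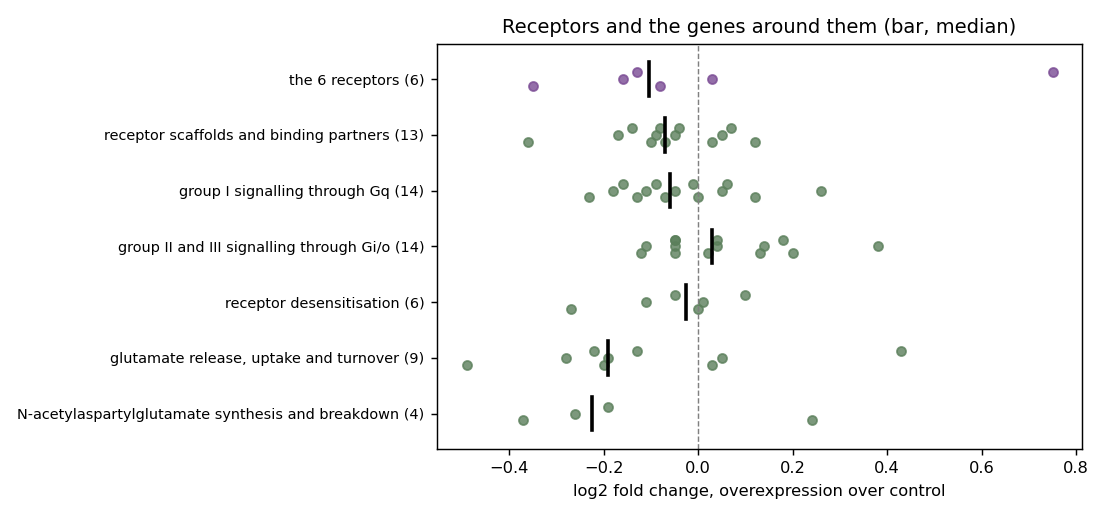
Log2 fold changes, overexpression over control, of the 6 receptor genes and of the genes in 6 lists around them, with 1 point per gene and a bar at each median. Grm2, at 0.75, lies farthest to the right, and the list medians lie between −0.22 and 0.03.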

How the data were processed

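Striatal RNA from 6 samples was sequenced, in strand-specific libraries per the labels' protocols. The authors deposited whole-number counts per Ensembl gene, without normalization. The build was mm10, and the tools were STAR 2.5.3a, FastQC 0.11.5, DESeq 1.16.1 and Cuffnorm, in no stated role, per the submitters' processing notes. How reads were counted, and with which strand setting, is not given in the sources used here. Symbols, positions and exon lengths came from GENCODE M21, which uses the same assembly and matched 55154 of 55335 identifiers.

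The count test was that of edgeR 4.0.16, run in R 4.3.3 (TMM, filterByExpr, robust quasi-likelihood, Benjamini-Hochberg over 19809 genes, two-sided threshold 0.05). CPM values used TMM-adjusted library sizes, except sums over marker lists, which used plain totals. Log2 CPM had a prior count of 2. Standard errors were taken as the size of the log2 fold change over the root of F. Alternatives used DESeq2 1.42.0 and limma 3.58.1.

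The members, gene lists and tests were chosen with earlier results of these data known. The text names all members, the 3 genes of each pathway list with the smallest p, and the 3 genes with the profile most like each member. Homer1, Glul, Ppp1r1b and the astrocyte and thalamic markers were named outside this rule, after their values were seen. Chi-square values per degree of freedom of 20.8 to 55.5 between replicates exceeded sampling noise.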

Additional observations from a re-analysis of the deposited data

How the results depend on the processing

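Over 15 other settings (DESeq2 or upper-quartile size factors, the DESeq2 Wald test, limma-voom, no filter, at least 1 CPM in all 6 libraries, a replicate block, no robust estimation, each library left out, and overexpression libraries 1 and 2 left out) 0 of 6 members were called. The 9 settings other than single libraries left out kept the direction of every member. With 1 library left out, log2 fold changes ran from −0.38 to 0.02 for Grm5, −0.25 to 1.47 for Grm2, −0.54 to −0.21 for Grm3, −0.39 to 0.14 for Grm4, −0.25 to 0.01 for Grm7 and −0.17 to 0.21 for Grm8. The sign turned without control replicate 2 for Grm4, Grm5, Grm7 and Grm8, and without overexpression replicate 3 for these and Grm2. The cause was not tested.

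All genes called numbered 1 in the main setting and 83 with DESeq2, 5 with limma-voom, 3 without a filter, 5 without overexpression libraries 1 and 2 (where the lone overexpression library is assumed to vary like the controls), and 1 to 2 with 1 library left out. With the replicate number as a block it was 3, and Grm3 had a log2 fold change of −0.37 with an unadjusted p of 0.00727 and an adjusted p of 0.714 in edgeR's test. Deviations of same-numbered libraries correlated at −0.0202, 0.0272 and 0.292 for numbers 1 to 3, and those of differently numbered libraries at −0.343 to 0.35. Deviations centred within groups of 3 libraries cannot decide whether the numbers pair the samples. No pairing is stated in the sources used here, so the main test used no block.

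With the longest transcript as length, means over the 6 libraries were 41.9 CPM per kilobase for Grm5, 9.22 for Grm4, 11.9 for Grm7 and 1.9 for Grm8, which then exceeded Grm2 in 4 of 6 libraries, while Grm7 exceeded Grm4 in 6 of 6. Counts of 77 and 88 limit the precision of Grm2 in its 2 lowest libraries.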
